A study of Rattus norvegicus with 3 samples.

Results

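The antigen processing and interferon genes described here are 9 rat genes: the peptide transporter genes Tap1 and Tap2, the MHC class I light chain gene B2m, the immunoproteasome genes Psmb8 and Psmb9, the interferon regulatory factor genes Irf1 and Irf7, the antiviral enzyme gene Oas1a and the MHC class II invariant chain gene Cd74. Every probe set that the platform annotation gave to 1 of these symbols alone was read, which gave 16 of the 8740 probe sets other than controls, for 9 of 4736 genes. The members were chosen by gene name with the intensities of these same 3 arrays known, so their levels and differences are given as a description, with no test. The probe sets came from 3 Affymetrix arrays, each hybridised with total RNA and labelled with 1 time, either 0.0 h, 0.1 h or 1.0 h. Each sample's source is given as both pineal gland and adrenal medulla, and the labels give no treatment, strain, age or number of animals. With 1 array per time label no difference has a replicate check, which limits how precisely any value is known.

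Cells cut their own proteins into peptides with the proteasome, and Tap1 and Tap2 together form the transporter that carries these peptides into the endoplasmic reticulum. There they are loaded onto MHC class I molecules, each made of a heavy chain and B2m, and shown at the cell surface to cytotoxic T cells. Interferons raise the expression of most of these genes: signalling from their receptors acts through STAT and IRF proteins on short DNA elements near gene starts, and replaces constitutive catalytic subunits of the proteasome by Psmb8 and Psmb9. MHC class II molecules, which Cd74 escorts, are made mainly by macrophages, dendritic cells and B cells and show peptides from outside the cell.

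Values below are scaled intensities, a linear measure of brightness after the arrays were brought to a common median, and they lay within a factor of 0.966 to 1.029 of the deposited ones. A probe set was compared between 2 arrays only where both were above a floor at the 40th percentile of all values, an intensity of 263.93, which left 58.8%, 60.5% and 60.8% of the probe sets on the 0.0 h, 0.1 h and 1.0 h arrays. It was counted as different from a 2-fold difference on, and the SD of the log2 differences over all probe sets, taken from the median absolute deviation, was 0.53 for 0.1 h against 0.0 h, 0.44 for 1.0 h against 0.0 h and 0.56 for 1.0 h against 0.1 h. The 3' to 5' signal ratio of the beta-actin control, a measure of RNA integrity, was 10.4, 17.8 and 44.4 in time order, and that of GAPDH was 15.3, 18.6 and 14.1; the part of RNA integrity in the members' differences was not tested. Of the 16 member probe sets, 12 were above the floor on all 3 arrays, 2 on some of them and 2 on none. All 9 genes had at least 1 probe set above the floor on all 3 arrays. Names ending in _g_at and _at with the same accession are 2 probe sets for 1 transcript sequence and are no independent samples.

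Between 0.1 h and 0.0 h, 5 of 12 measured member probe sets lay at least 2-fold higher, while no member was lower by as much, where 6.21% of all 4737 measured probe sets were higher and 4.35% lower by that rule. They belonged to Tap1, with both its probe sets, and to Psmb9, Irf7 and Oas1a. Read from the brightest probe set of each gene, 2 of 9 genes were at least 2-fold higher, Tap1 and Oas1a. Between 1.0 h and 0.0 h, 5 of 12 were at least 2-fold higher and none lower, where 2.89% of all 4770 were higher and 2.56% lower. They came from Tap1, Irf7 and Oas1a, which were also the 3 of 9 genes higher by the brightest probe set. Between 1.0 h and 0.1 h, 1 of 13 was at least 2-fold higher, from Cd74, and 1 lower, from Psmb9, where 3.87% of all 4828 were higher and 5.49% lower. Both comparisons with 0.0 h share the 0.0 h array, and the members were picked with these differences known, so nothing is read from the counts. After scaling the arrays on the 9 spike-in control probe sets, which moved all log2 differences of a comparison by 1 amount, there were 2 higher and 1 lower member probe sets between 0.1 h and 0.0 h, 6 higher between 1.0 h and 0.0 h and 2 higher between 1.0 h and 0.1 h. The spike-in mean log2 differences behind these shifts were 0.27, -0.20 and -0.47 for 0.1 h against 0.0 h, 1.0 h against 0.0 h and 1.0 h against 0.1 h, and the same scaling turned the counts over all probe sets to 134 higher and 459 lower, 261 higher and 63 lower, and 797 higher and 60 lower. In tissue RNA, a change in the number of cells of a type and a change in RNA per cell cannot be told apart.

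**Figure D1:**
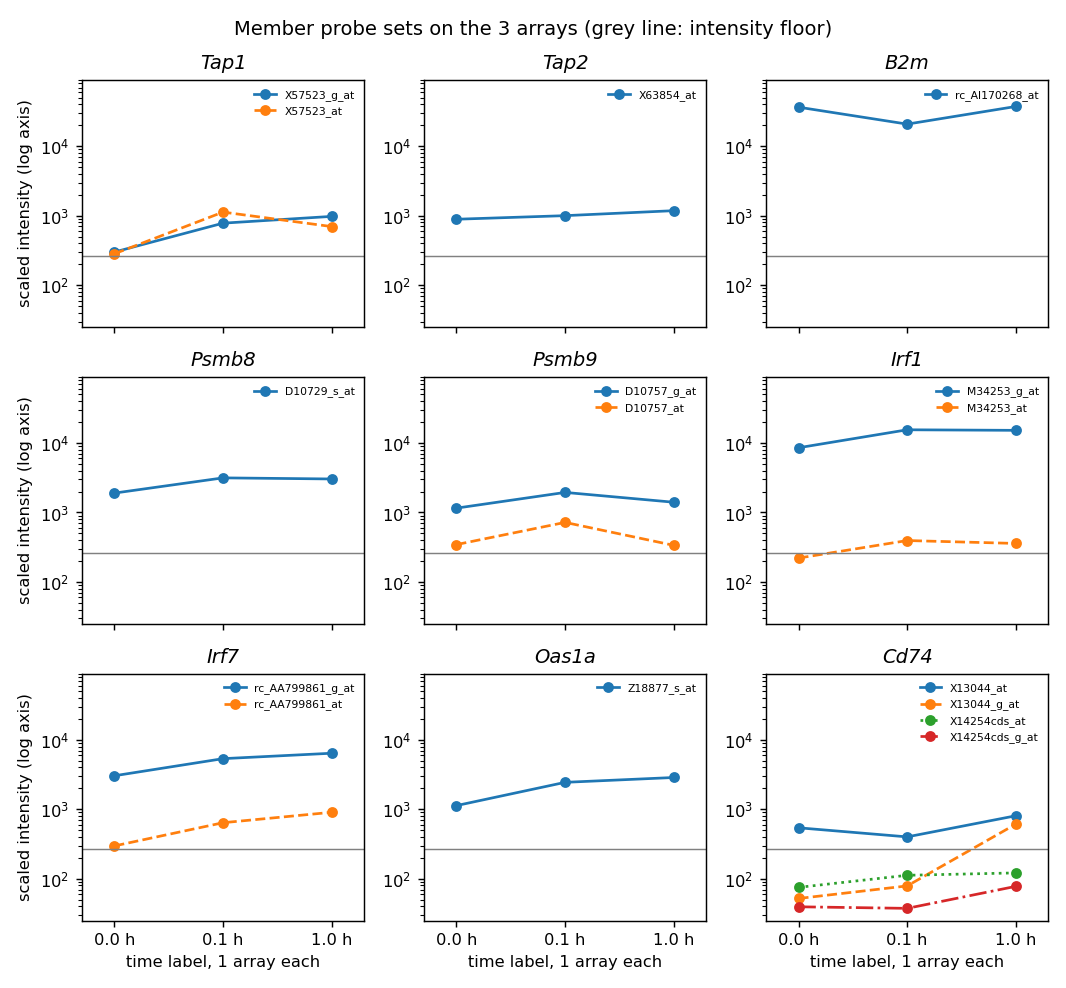
Scaled intensity (log axis) of each member probe set on the 0.0 h, 0.1 h and 1.0 h arrays, 1 panel per gene, 1 point per array, with the floor of 263.93 as a grey line. Tap1, Tap2, Psmb8, Irf1, Irf7 and Oas1a were lowest at 0.0 h on every probe set. B2m and the brightest Cd74 probe set dipped at 0.1 h, and 3 of the 4 Cd74 probe sets lay below the floor at 0.0 h.

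Tap1, which encodes 1 chain of the peptide transporter, had the largest range of the members whose brightest probe set was measured on all arrays. Its brighter probe set, X57523_g_at, read 299.9 at 0.0 h, 781.1 at 0.1 h and 977.6 at 1.0 h, so it was 2.61-fold higher at 0.1 h and 3.26-fold higher at 1.0 h than at 0.0 h. The other, X57523_at, read 283.1, 1127.4 and 697.6, which is 3.98-fold and 2.46-fold higher than at 0.0 h. Both probe sets were lowest at 0.0 h, but they disagreed on the order of the later arrays: the log2 difference of 1.0 h against 0.1 h was 0.32 on the first and -0.69 on the second. Among all measured probe sets X57523_at ranked 21 from the top at 0.1 h against 0.0 h, and X57523_g_at ranked 15 at 1.0 h against 0.0 h. At 0.0 h both Tap1 probe sets lay near the floor, at percentiles of 44.0 and 42.6 of that array. With the floor at the 60th percentile neither Tap1 probe set was measured at 0.0 h.

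Tap2, the partner chain, differed far less. Its only probe set read 889.6, 1001.9 and 1181.6 at 0.0 h, 0.1 h and 1.0 h, log2 differences of 0.17 at 0.1 h and 0.41 at 1.0 h against 0.0 h, both within the SD over all probe sets. Under spike-in scaling the first of these was -0.10, so its direction at 0.1 h depended on the scaling.

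The immunoproteasome genes Psmb8 and Psmb9 encode the catalytic subunits that replace the constitutive ones under interferon. Psmb8 read 1902.2, 3150.1 and 3038.1 at 0.0 h, 0.1 h and 1.0 h, which is 1.66-fold higher at 0.1 h and 1.60-fold higher at 1.0 h than at 0.0 h. The later arrays thus sat close together, with a log2 difference of -0.05 for 1.0 h against 0.1 h, which was 0.04 on the values as deposited and 0.42 under spike-in scaling. Psmb9 instead was highest at 0.1 h on both probe sets. The brighter read 1155.7, 1945.5 and 1405.1, a 1.68-fold and a 1.22-fold higher level than at 0.0 h, and the dimmer read 345.4, 720.3 and 336.7. On the dimmer probe set the 0.1 h level was 2.09-fold higher than at 0.0 h, and 1.0 h was 2.14-fold lower than 0.1 h and nearly level with 0.0 h, at a log2 difference of -0.04. Its 0.1 h difference was under 2-fold with quantile normalisation, at 0.93 on the log2 scale, with cyclic loess, at 0.96, and under spike-in scaling, at 0.79. Under spike-in scaling the brighter probe set was level between 1.0 h and 0.1 h, at 0.00, and the dimmer had -0.63.

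B2m, the light chain of all MHC class I molecules, was the brightest member and stood apart in pattern. Its probe set read 36491.7 at 0.0 h, 20809.2 at 0.1 h and 37359.1 at 1.0 h. The 0.1 h array was 1.75-fold lower than the 0.0 h array, while 1.0 h against 0.0 h gave a log2 difference of 0.03. Under spike-in scaling the 0.1 h difference was -1.09, past 2-fold. A further probe set whose annotation joins B2m with several other genes was not read.

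Irf1 and Irf7 encode transcription factors of the interferon response, the first induced by interferon gamma and binding the promoters of MHC class I pathway genes, the second a regulator of type I interferon genes and itself interferon-inducible. Irf1 read 8548.1, 15506.8 and 15221.8 on its brighter probe set, 1.81-fold higher at 0.1 h and 1.78-fold higher at 1.0 h than at 0.0 h. Its dimmer probe set, M34253_at, read 220.8 at 0.0 h, under the floor, and 394.8 at 0.1 h and 358.6 at 1.0 h, over it. Set against the floor in place of the dim value, the 0.1 h level was at least 1.5-fold and the 1.0 h level at least 1.36-fold higher. Both Irf1 probe sets therefore read lowest at 0.0 h and close together on the later arrays. The 1.0 h against 0.1 h difference of the brighter one was -0.03 and changed sign under 4 of the scalings tried.

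Irf7 read 3036.6, 5354.3 and 6408.4 on its brighter probe set, 1.76-fold higher at 0.1 h and 2.11-fold higher at 1.0 h than at 0.0 h. The dimmer one, rc_AA799861_at, read 296.8, 640.7 and 905.5, which is 2.16-fold and 3.05-fold higher. It lay near the floor at 0.0 h, at a percentile of 43.7. Its 0.1 h difference was under 2-fold with quantile normalisation, at 0.95 on the log2 scale, and under spike-in scaling, at 0.835. Both probe sets had the same order over the arrays, lowest at 0.0 h and highest at 1.0 h, although the brighter was 10.23 times the dimmer at 0.0 h and 7.08 times at 1.0 h. Oas1a, an enzyme that senses double-stranded RNA and activates RNase L, had the same order: 1130.2, 2442.7 and 2867.5, a 2.16-fold and a 2.54-fold higher level at 0.1 h and 1.0 h than at 0.0 h. Under spike-in scaling its log2 difference of 1.11 at 0.1 h against 0.0 h was 0.84, under 2-fold. The single Oas1a probe set, Z18877_s_at, carries the mark of a probe set that can match several related transcripts, and the Oas1 family is large in rodents. Oas1b, the relative on the array, never passed the floor and read 62.9 or less.

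Cd74, the class II chaperone, was read by 4 probe sets that did not behave alike. The brightest, X13044_at, read 541.6, 400.7 and 806.8, which was 1.35-fold lower at 0.1 h and 1.49-fold higher at 1.0 h than at 0.0 h, and 2.01-fold higher at 1.0 h than at 0.1 h. X13044_g_at, made from the same sequence record, read 52.0 at 0.0 h and 78.9 at 0.1 h, both below the floor, and 611.7 at 1.0 h, which is at least 2.32-fold above the floor. The pair of probe sets from the other sequence record, X14254cds, stayed under the floor throughout, with 39.5 to 75.2 at 0.0 h, 37.5 to 112.2 at 0.1 h and 77.8 to 121.4 at 1.0 h. Read as the mean of its 4 probe sets, 3 of which were not measured at 0.0 h, Cd74 had log2 differences of 0.17 at 0.1 h and 1.45 at 1.0 h against 0.0 h, in place of -0.43 and 0.57 on the brightest probe set.

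**Figure D2:**
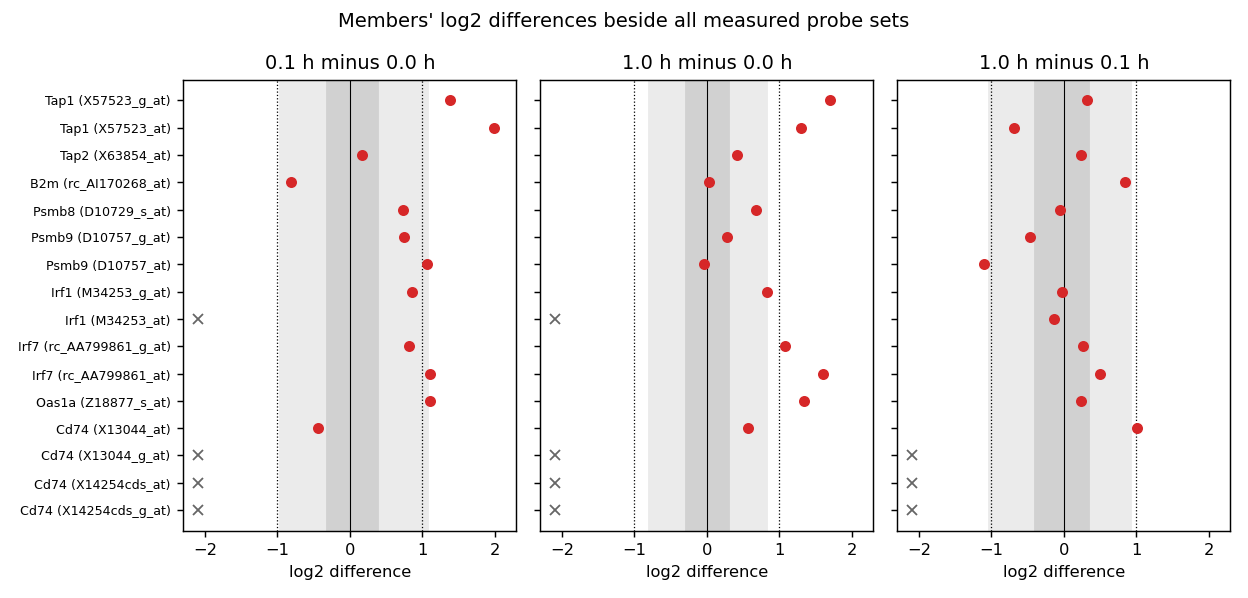
log2 difference of each member probe set (red points) in the 3 comparisons, with the range between the quartiles (dark grey) and between the 5th and 95th percentiles (light grey) of all measured probe sets, dotted lines at 2-fold, and a grey cross at the left edge where either array was under the floor. Both Tap1 probe sets lie past 2-fold against 0.0 h on both later arrays, and the members scatter around 0 between 1.0 h and 0.1 h.

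Read from 1 probe set per gene, the brightest, the 9 members fell into 3 orders. In 4 genes, Tap1, Tap2, Irf7 and Oas1a, the level was lowest at 0.0 h and highest at 1.0 h. In 3, Psmb8, Psmb9 and Irf1, it was lowest at 0.0 h and highest at 0.1 h, and in 2, B2m and Cd74, lowest at 0.1 h and highest at 1.0 h. All 9 had at least 1 pair of neighbours in its order within the SD over all probe sets, so part of each gene's order rests on a difference of that size. For Tap1, Tap2, Psmb8, Psmb9, Irf1, Irf7 and Oas1a that pair was 0.1 h and 1.0 h, for B2m 0.0 h and 1.0 h, and for Cd74 0.0 h and 0.1 h. Tap2 also lay within it at 0.0 h and 0.1 h, and Psmb9 at 0.0 h and 1.0 h. The low 0.1 h level of B2m lay beyond the SD on both sides. Its log2 differences were -0.81 at 0.1 h against 0.0 h and 0.84 at 1.0 h against 0.1 h. The median log2 difference of the 9 genes was 0.75 at 0.1 h and 0.68 at 1.0 h against 0.0 h, and 0.24 at 1.0 h against 0.1 h, beside medians of 0.00, 0.01 and 0.00 over all measured genes.

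The pattern of Tap1, on X57523_g_at alone, was then set against the 2914 other genes above the floor on all 3 arrays. The measure was the Euclidean distance between the 3 log2 values of each gene, centred on the gene's own mean. X57523_at was not compared. It read 1127.4 at 0.1 h and 697.6 at 1.0 h, the opposite order of the later arrays, so the genes below are near 1 Tap1 probe set only. The nearest was Oas1a, itself a member, at a distance of 0.27, followed by the potassium channel gene Kcnj8 with 326.2, 675.4 and 848.0 at 0.27, the cytochrome oxidase subunit gene Cox7b with 371.0, 1254.0 and 1506.4 at 0.29, the insulin receptor substrate gene Irs2 with 278.3, 563.5 and 718.7 at 0.29, and the chemokine gene Cxcl2 with 382.6, 1210.6 and 1147.4 at 0.29. These distances over 3 arrays lie too close together to order the genes. All 4 of these other genes were dim at 0.0 h, as Tap1 was.

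Read from the brightest probe set of each gene, the rest of the class I pathway showed smaller differences from 0.0 h than Tap1. Of 42 listed genes 20 were on the array and 17 were measured in each comparison, members included. At 0.1 h against 0.0 h, 2 of the 17 were at least 2-fold higher, where 6.21% of all measured probe sets were. None was lower, where 4.35% of all measured probe sets were. The median log2 difference was 0.27 beside 0.00 over all 2992 measured genes. Those 2 were Tap1 and Canx, the endoplasmic reticulum chaperone calnexin, which read 31442.0, 63983.8 and 36863.2 in time order and was 2.03-fold higher at 0.1 h than at 0.0 h. Its 4 other probe sets were higher at 0.1 h than at 0.0 h too. At 1.0 h against 0.0 h only Tap1 of the 17 was at least 2-fold higher, where 2.89% of all measured probe sets were. None was lower, where 2.56% of all measured probe sets were. The median was 0.23 beside 0.01 over all 3026 measured genes. Between 1.0 h and 0.1 h none of the 17 was 2-fold apart, where 3.87% of all measured probe sets were higher and 5.49% lower. The median was -0.09 beside 0.00. The class I heavy chain genes, named here after their values were seen, were mixed. RT1-CE16 read 25135.0, 34225.8 and 32133.3, with log2 differences of 0.45 and 0.35 at 0.1 h and 1.0 h against 0.0 h, and its _f_at probe set is of a kind that can match a gene family. RT1-S3 read 1293.8, 2203.7 and 2565.4, differences of 0.77 and 0.99, and its other probe sets differed less at 1.0 h against 0.0 h. RT1-M3-1 read 2888.8, 2826.9 and 1867.5, differences of -0.03 and -0.63, with -1.43 and -1.26 on its other probe set. Psme1 and Psme2, the interferon-inducible proteasome activator genes, had differences of 0.56 and 0.27 at 0.1 h and of 0.01 and 0.06 at 1.0 h against 0.0 h. Another measured probe set of Psme1 gave -0.09 and -0.17.

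The constitutive proteasome genes served as a set of the same machine that interferon does not switch on. Of 14 listed, 11 were on the array and measured, and against 0.0 h none was 2-fold apart on either later array. Over all measured probe sets 6.21% were higher and 4.35% lower at 0.1 h, and 2.89% and 2.56% at 1.0 h. Nothing is read from that count of so few genes. The median log2 difference of the 11 genes was 0.13 at 0.1 h and -0.14 at 1.0 h against 0.0 h. Between 1.0 h and 0.1 h it was -0.32. In that comparison Psmb1, which read 21051.5, 22291.3 and 11101.7 in time order, was 2.01-fold lower. The share at least 2-fold lower over all measured probe sets was 5.49%. Psmb5, the subunit that Psmb8 replaces, read 28441.0, 31207.7 and 17556.0 on its brightest probe set, log2 differences of 0.13 at 0.1 h and -0.70 at 1.0 h against 0.0 h, while Psmb8 had 0.73 and 0.68. The other Psmb5 probe sets disagreed at 1.0 h against 0.0 h, with 0.06 and 0.24. The 2 brightest of the list, Psma7 and Psma6, had differences of 0.14 and 0.33 at 0.1 h and of -0.46 and 0.13 at 1.0 h.

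Class II genes were compared to see whether Cd74 moved with its partners. Of 25 listed, 18 were on the array and 15 measured, the member Cd74 included. None was 2-fold apart at 0.1 h against 0.0 h, where 6.21% of all measured probe sets were higher and 4.35% lower. The median in that comparison was -0.16. At 1.0 h against 0.0 h the median was 0.08. In that comparison 1 gene was at least 2-fold lower, where 2.56% of all measured probe sets were. That gene, Rfx5, a factor that binds class II promoters, read 6159.7, 5223.9 and 2749.3 in time order, a log2 difference of -1.16. Between 1.0 h and 0.1 h the median was 0.37, and Cd74 alone was at least 2-fold higher. The share over all measured probe sets was 3.87%. Several class II genes, named after their values were seen, had the order of Cd74, lowest at 0.1 h and highest at 1.0 h. The alpha chain gene RT1-Da read 1633.6, 1295.6 and 2140.7, and RT1-DMb, which helps to exchange the Cd74 peptide, read 716.6, 665.5 and 1063.5. RT1-Db1 did not, with 447.8, 400.0 and 340.7. The second RT1-Da probe set was nearly level at 1.0 h against 0.0 h, with -0.05. Cathepsin S, Ctss, a protease that cuts the invariant chain, read 9560.6, 9899.7 and 15544.7, a difference of 0.70 at 1.0 h against 0.0 h. Ctsl, the brightest of the list, read 57518.8, 47081.5 and 53550.9. Its other probe set went the opposite way in each comparison. That probe set had log2 differences of 0.35 and 0.08 at 0.1 h and 1.0 h against 0.0 h.

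Upstream of these genes lie the interferons and their receptors. Of 32 listed genes of interferon signalling 17 were on the array, the members Irf1 and Irf7 included. Below the floor on every array were 6: Ifnb1, Ifngr1, Irf2, Socs3, Tlr7 and Ticam1. Interferon gamma, Ifng, read 51.3, 265.8 and 139.3, and was above the floor at 0.1 h alone, by a factor of 1.01. Interferon beta, Ifnb1, read 129.9, 155.0 and 55.5. Both interferon transcripts were thus near or under the floor. At 0.1 h against 0.0 h none of 8 measured genes was 2-fold apart, where 6.21% of all measured probe sets were higher and 4.35% lower. The median of the 8 was -0.23, and Irf1 and Irf7 had the highest differences. At 1.0 h against 0.0 h 1 of 9 was at least 2-fold higher, where 2.89% of all measured probe sets were. It was Irf7, a member picked with its values known. The median was 0.29 beside 0.01 over all measured genes. Jak1, a kinase of the interferon receptors, read 206.2, 304.5 and 573.8 and was under the floor at 0.0 h, which makes it at least 2.17-fold higher at 1.0 h. Between 1.0 h and 0.1 h the median was 0.47, and 1 of 9 was at least 2-fold higher. The share over all measured probe sets was 3.87%. The 1 gene was Irf8, a factor of macrophages and dendritic cells. It read 1029.4, 532.5 and 1256.3 in time order and was 2.36-fold higher. Irf3, which acts before interferon is made, read 5803.9, 5946.4 and 8231.2. Stat2, a subunit of the factor that carries the type I interferon signal, read 1960.3, 1105.9 and 2188.9, with log2 differences of -0.83 at 0.1 h and 0.16 at 1.0 h against 0.0 h, and the receptor chain gene Ifnar1 read 589.6, 382.9 and 335.9.

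Among interferon-stimulated effector genes 13 of 60 listed were on the array, with the member Oas1a counted among them and in the medians below. At 0.1 h against 0.0 h 2 of 9 measured were at least 2-fold higher, where 6.21% of all measured probe sets were. They were Rsad2 and Oas1a, itself a member picked with its values known. None of the 9 was lower, where 4.35% of all measured probe sets were. The median was 0.29 beside 0.00 over all 2992 measured genes. At 1.0 h against 0.0 h it was again those 2, of 10 measured, where 2.89% of all measured probe sets were. The median was 0.21 beside 0.01 over all 3026 measured genes. Rsad2, the antiviral enzyme viperin, read 2019.3, 5137.7 and 4941.2 in time order, which is 2.54-fold higher at 0.1 h and 2.45-fold higher at 1.0 h than at 0.0 h, while its other probe set was level at 0.1 h and 0.27 higher on the log2 scale at 1.0 h. Between 1.0 h and 0.1 h none of 9 was 2-fold apart, where 3.87% of all measured probe sets were higher and 5.49% lower. The median was 0.23. Of the 13, 10, 9 and 12 were above the floor at 0.0 h, 0.1 h and 1.0 h. Mx2, a dynamin-like antiviral protein gene, and Gbp2, an interferon-induced GTPase gene, both named after their values were seen, were above the floor at 1.0 h only. Mx2 read 110.7, 116.2 and 403.9 in time order, at least 1.53-fold higher at 1.0 h, and Gbp2 read 91.9, 109.2 and 286.4, at least 1.08-fold higher. Other effectors did not share this pattern: Mx1 read 950.8, 671.2 and 1111.7, and Eif2ak2, a kinase that senses double-stranded RNA, read 3951.4, 2722.0 and 2625.8. Cxcl10, a chemokine induced by interferon, read 320.1, 392.4 and 629.7, a log2 difference of 0.98 at 1.0 h against 0.0 h.

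**Figure D3:**
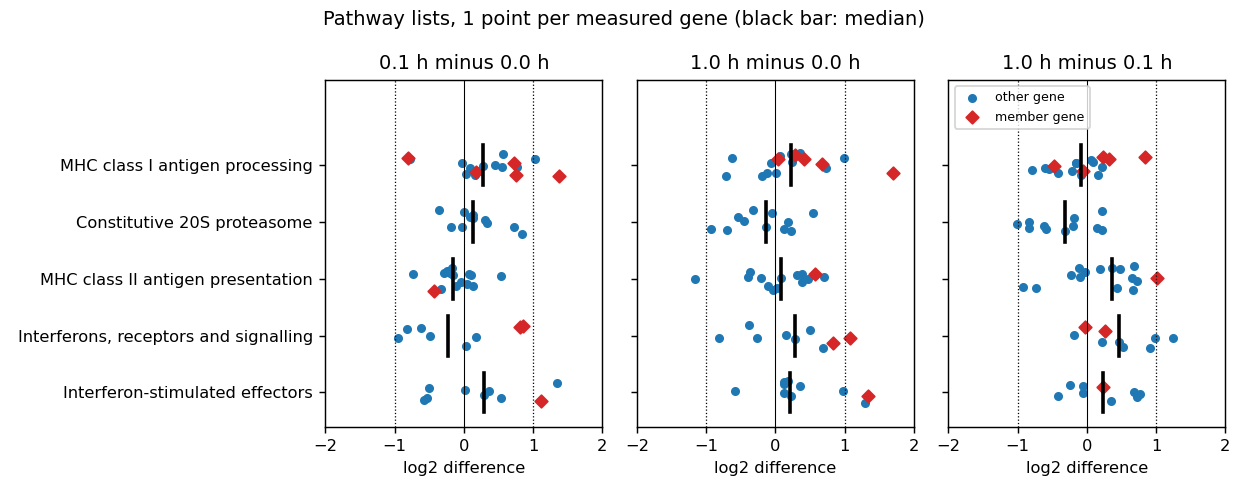
log2 differences of the measured genes of 5 pathway lists in the 3 comparisons, with the 9 members as red diamonds, other genes as blue points, the list median as a black bar and dotted lines at 2-fold. At 1.0 h against 0.0 h the list medians lie between -0.14 and 0.29, and few genes other than members lie past 2-fold.

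Markers of cell types that carry much of this pathway were read beside the members. Of 46 listed leukocyte markers 26 were on the array and 11 were below the floor on all arrays, among them the T cell genes Cd3d, Cd3g, Cd8a and Cd2 and the myeloid genes Itgam and Csf1r. Their summed intensity was 13072.9, 17416.2 and 16547.9 at 0.0 h, 0.1 h and 1.0 h. Ptprc, the common leukocyte antigen, read 285.5, 722.7 and 503.4, 2.53-fold higher at 0.1 h than at 0.0 h, and Coro1a, which encodes a regulator of actin in leukocytes, read 451.0, 918.7 and 1850.8, 4.10-fold higher at 1.0 h than at 0.0 h. The list's median log2 difference over 11 measured genes was 0.60 at 0.1 h and 0.22 at 1.0 h against 0.0 h. In each of these comparisons 8 of the 11 were above 0, beside 51.4% and 51.8% of all measured probe sets. Between 1.0 h and 0.1 h 5 of 11 were above 0. The 0.1 h median was 0.26 with a 20th-percentile floor and 0.33 under spike-in scaling, and the 1.0 h median was 0.42 with either. Cd48, the brightest of the list, had differences of 0.10 and -0.21, and Cd4 read 375.8, 366.5 and 39.6. Of 9 endothelial markers on the array, of 16 listed, the summed intensity was 4455.6, 4623.2 and 5861.3, but the genes did not move alike. Ly6c read 282.2, 785.4 and 1488.4, and Nos3, the endothelial nitric oxide synthase, 476.9, 845.3 and 809.9. Other measured Nos3 probe sets had log2 differences of -0.40 and 0.22 at 0.1 h against 0.0 h, in place of 0.83. Vwf, which encodes von Willebrand factor, read 449.9, 138.0 and 77.7, at least 1.70-fold lower on both later arrays than at 0.0 h. Pecam1 read 455.8, 156.7 and 416.9, and Kdr, a receptor for vascular endothelial growth factor, 1489.2, 1227.6 and 1277.4. The median difference of the endothelial list at 0.1 h against 0.0 h was 0.64, and turned to -0.12 for a 20th-percentile floor and to -0.28 for a 60th-percentile floor. Icam2 and Sele were below the floor on all arrays. The part of leukocytes and endothelium in the members' differences was not tested.

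The markers of the labelled tissues also differed between the arrays. Pinealocyte markers were above the floor for 5, 6 and 6 of 6 genes on the array. Asmt, the last enzyme of melatonin synthesis, read 5745.9, 13860.6 and 9169.8, 2.41-fold higher at 0.1 h than at 0.0 h. Pdc, the photoreceptor and pineal protein phosducin, read 19482.4, 23097.9 and 9165.2, 2.13-fold lower at 1.0 h than at 0.0 h. The pinealocyte list's median log2 difference was 0.10 at 0.1 h and -0.19 at 1.0 h against 0.0 h. Of the genes listed as chromaffin markers, 7 were on the array. Pnmt, the enzyme that makes adrenaline, read 610.7, 657.4 and 514.3. The granule protein gene Chgb read 64523.6, 61107.5 and 48347.9, and the decarboxylase gene Ddc 19644.5, 20192.6 and 13213.1. Whether these 3 come from chromaffin cells alone in these samples was not tested. Th, Dbh, Slc18a1 and Phox2a were below the floor on all arrays. Whether each array held RNA of both labelled tissues was not tested. The median of the 3 measured genes of the chromaffin list was 0.04 at 0.1 h and -0.42 at 1.0 h against 0.0 h. Of 6 adrenal cortex markers, Cyp21a1 read 395.7, 187.9 and 512.7 and Nr5a1 62.0, 310.2 and 125.9, while Star, Cyp11a1, Cyp17a1 and Cyp11b2 were below the floor on all arrays. The part of these tissue markers in the members' differences was not tested.

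The promoters of the members are shown because most of them share short elements of the interferon response, and because Tap1 and Psmb9 start back to back. In the RefSeq annotation of GRCr8 the genes Tap2, Psmb8, Tap1 and Psmb9 lie in this order in the MHC on chromosome 20, between RT1-DOb and RT1-DMb, and the annotated starts of Tap1 and Psmb9 lie 457 bases apart on opposite strands. Promoter windows of 300 bases, 250 before and 50 after the annotated start, were found for all 9 members by gene ID and were searched on both strands for 3 motifs chosen for this pathway: GAAANNGAAA, the core of the interferon-stimulated response element to which STAT and IRF proteins bind (ISRE-like), TTCNNNGAA, the core of the gamma-activated site, an element of interferon gamma responses (GAS-like), and GGGANTTTCC, a form of the site that NF-kappa B binds (kappa B-like). The 250 bases before the start of 5 members follow, 5' to 3' on the strand of the gene, with motif matches in capitals.
Tap1, chr20:4668544-4668793, minus strand: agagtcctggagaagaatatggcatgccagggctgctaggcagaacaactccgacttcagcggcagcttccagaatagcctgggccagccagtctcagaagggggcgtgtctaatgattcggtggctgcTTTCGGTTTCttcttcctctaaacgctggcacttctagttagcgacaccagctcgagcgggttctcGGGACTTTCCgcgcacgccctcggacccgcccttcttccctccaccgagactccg
Psmb9, chr20:4668750-4668999, plus strand: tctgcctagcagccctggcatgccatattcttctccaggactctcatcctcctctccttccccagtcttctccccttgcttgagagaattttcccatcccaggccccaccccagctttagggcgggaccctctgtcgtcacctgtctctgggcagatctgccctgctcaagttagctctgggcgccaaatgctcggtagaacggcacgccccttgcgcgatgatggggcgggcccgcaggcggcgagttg
B2m, chr3:129549080-129549329, plus strand: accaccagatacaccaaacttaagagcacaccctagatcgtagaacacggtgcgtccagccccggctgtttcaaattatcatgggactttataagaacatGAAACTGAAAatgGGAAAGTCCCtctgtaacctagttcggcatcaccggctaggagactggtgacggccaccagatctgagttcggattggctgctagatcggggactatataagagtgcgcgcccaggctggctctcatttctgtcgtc
Irf7, chr1:205800024-205800273, minus strand: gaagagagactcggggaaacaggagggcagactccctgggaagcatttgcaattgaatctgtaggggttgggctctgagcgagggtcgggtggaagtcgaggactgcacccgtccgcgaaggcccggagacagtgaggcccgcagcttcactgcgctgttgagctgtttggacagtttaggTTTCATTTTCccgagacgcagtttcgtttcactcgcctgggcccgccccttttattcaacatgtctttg
Oas1a, chr12:41330216-41330465, plus strand: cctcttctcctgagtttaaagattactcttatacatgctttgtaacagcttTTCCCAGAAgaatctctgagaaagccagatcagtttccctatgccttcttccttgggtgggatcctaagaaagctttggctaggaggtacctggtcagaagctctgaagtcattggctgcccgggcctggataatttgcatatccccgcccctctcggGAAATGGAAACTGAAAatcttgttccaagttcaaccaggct

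The ISRE-like letters were found in 6 of the 9 members, Tap1, Tap2, B2m, Psmb8, Irf7 and Oas1a, and in 3.92% of 33469 annotated promoter windows of the same length. The GAS-like letters were found in 3 members, Psmb8, Irf1 and Oas1a, and in 8.87% of all windows, and the kappa B-like letters in 2, Tap1 and B2m, and in 0.362% of all windows. In Tap1 the ISRE-like match began 121 bases and the kappa B-like match 55 bases upstream of the start. In B2m they began 150 and 137 bases upstream. In Oas1a 2 overlapping ISRE-like matches began 41 and 35 bases upstream, in Tap2 1 began 41 and in Irf7 1 began 69 bases upstream, and in Psmb8 1 began 4 bases upstream and ran across the annotated start. Irf1 had its GAS-like match 142 bases upstream. Psmb9 and Cd74 held none of the 3 motifs in this window. The 250-base upstream windows of Tap1 and Psmb9 overlap by 44 bases. Both Tap1 matches lie in the stretch between the 2 starts, which are 457 bases apart, but outside the Psmb9 window. The search of the Psmb9 window therefore did not reach them. A match is a description of these letters and does not show binding.

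**Figure D4:**
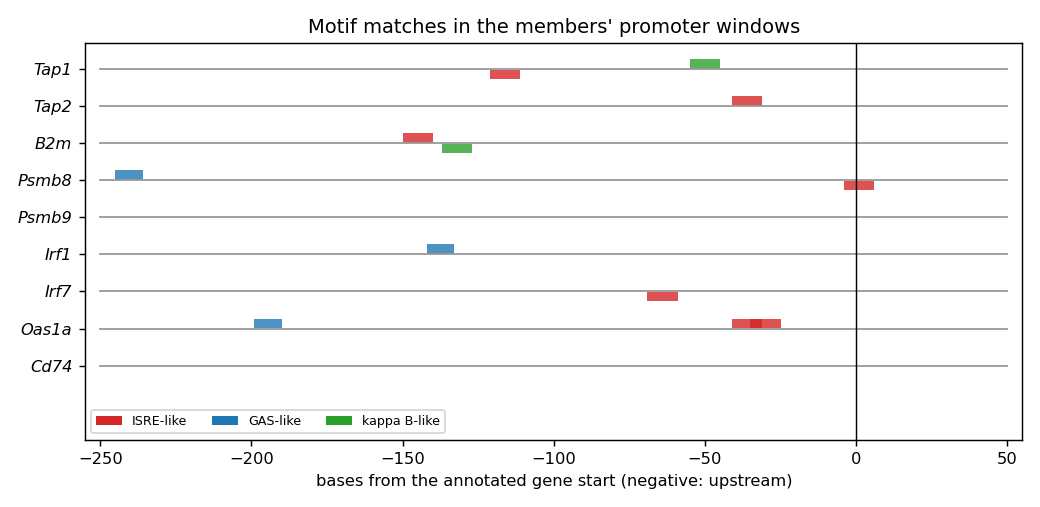
Motif matches in the 300-base promoter window of each member, against distance from the annotated start (0, vertical line), with matches on the gene's strand above the line and on the other strand below it. The members with ISRE-like matches (red) are Tap1, Tap2, B2m, Psmb8, Irf7 and Oas1a.

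The same letters were then looked up across the array. Of the measured genes other than members, 1 of 77 with an ISRE-like match, or 1.30%, was at least 2-fold higher at 1.0 h against 0.0 h, beside 55 of 2416 without one, or 2.28%. At 0.1 h against 0.0 h it was 5 of 76, or 6.58%, with a match, beside 134 of 2391, or 5.60%, without. At least 2-fold lower were 5 of 77, or 6.49%, with a match beside 2.61% without at 1.0 h against 0.0 h, and 0 of 76 beside 4.85% at 0.1 h against 0.0 h. The median log2 difference of genes with a match at 1.0 h against 0.0 h was -0.03, beside 0.01 for those without. For the GAS-like letters 4 of 150 genes with a match and 52 of 2343 without were at least 2-fold higher at 1.0 h against 0.0 h. Among the members themselves, B2m had both an ISRE-like and a kappa B-like match, as Tap1 did. At 0.1 h against 0.0 h B2m was 1.75-fold lower and Tap1 2.61-fold higher. At 1.0 h against 0.0 h their log2 differences were 0.03 and 1.705. The part of the motifs in the members' differences was not tested.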

How the data were processed

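The authors deposited 1 linear intensity per probe set for 3 arrays. How they were summarised and background-corrected, and with which software, is not given in the sources used here. Trimmed by 2% at either end, the deposited intensity values averaged 2503.7, 2503.9 and 2503.7, so a common scaling preceded deposit. Of 8799 probe sets 59 controls were left out, and of the other 8740 the platform annotation named 7006 with 1 gene symbol, 308 with several and gave no symbol for 1426. A gene's level is that of its brightest probe set by mean log2 level, unless another probe set is named.

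Intensities were taken to log2 in Python 3.11.15, scaled to the array median, aligned to equal medians over those probe sets that passed the 40th percentile on all arrays, and floored at the 40th percentile of the shifted values. The whole table was scaled and only the members and lists are printed. No p-value was possible with 1 array per label. The scaling and counting were tested on simulated data. Alternatives tried were unscaled deposited values, quantile normalisation, cyclic loess (limma 3.58.1 in R 4.3.3), equal spike-in probe sets, floors at the 20th and 60th percentiles and averaging a gene's probe sets. List genes were named where they passed 2-fold, with no more than 4 in a direction, or else as the 2 brightest of the list. Any other list or marker gene given by name was chosen after its values were seen. The members, lists, motifs and alternatives were chosen with earlier results of these data known. Promoter sequences are those of RefSeq, assembly GRCr8, matched by gene ID. The array files name no genome build.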

Additional observations from a re-analysis of the deposited data

How the results depend on the processing

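The counts of member probe sets at least 2-fold apart were 5 between 0.1 h and 0.0 h, 5 between 1.0 h and 0.0 h and 2 between 1.0 h and 0.1 h. Between 0.1 h and 0.0 h the count was 3 with quantile normalisation, all higher, and 3 under spike-in scaling, 2 higher and 1 lower. Spike-in scaling lowered every log2 difference of that comparison by the same 0.27. The cause of the change with quantile normalisation was not tested. A 60th-percentile floor gave counts of 1, 2 and 0, over 7, 7 and 8 measured member probe sets in place of 12, 12 and 13. The counts over all probe sets, 294 higher and 206 lower, 138 and 122, and 187 and 265 in the same order of comparisons, became 134 and 459, 261 and 63, and 797 and 60 under spike-in scaling. They were 586 and 428, 401 and 320, and 455 and 522 for a 20th-percentile floor, and 169 and 133, 59 and 70, and 100 and 171 at the 60th, where the number of probe sets measured changed. For the single member genes, the sign was kept in 59 of 61 alternative values at 0.1 h against 0.0 h. It was kept in 61 of 61 at 1.0 h against 0.0 h and in 54 of 62 at 1.0 h against 0.1 h. Part of this was fixed in advance. A changed floor alters which values are measured but not the values, and averaging leaves a gene with 1 probe set unchanged. These tallies are therefore no measure of how stable the signs are. Readings near or under the floor limit the values of Tap1, Cd74 and the dimmer probe sets of Irf1, Irf7 and Psmb9, and 1 array per label limits all of them.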
